A study of Homo sapiens with 6 samples.

Results

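The genes of MHC class I antigen presentation were followed by name in cells with and without CTRB1. They were B2M, HLA-B, HLA-C, HLA-E, HLA-F, TAP1, TAP2, TAPBP and NLRC5. Taking the HGNC symbol of each row of the deposited table, or the gene name where that symbol was blank, gave 10 of 20345 protein-coding genes. One of them was a TAP2-HLA-DOB readthrough gene, which carries the name TAP2 and has no HGNC symbol. It stayed under 1 FPKM in every library, and the other 9 genes entered the test together with the rest of the 11961 expressed genes. FPKM is a fragment count scaled for transcript length and library size, and CPM is a read count scaled for library size alone.

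The RNA libraries came from HEK 293FT, a line derived from human embryonic kidney, in 2 groups of 3. The CTRB1 cells are titled HEK 293FTGFP-CTRB1 and numbered CTRB1-1 to CTRB1-3, and the GFP cells are titled HEK 293FTGFP and numbered Vec-1 to Vec-3. CTRB1 encodes chymotrypsinogen B1, a digestive protease precursor of the pancreas, and GFP is the green fluorescent protein that both names carry. The labels name no promoter, no dose, no time and no drug, and do not say whether either line is a single clone or whether the libraries came from separate cultures. The p-values therefore measure only the spread between these libraries, which may be technical. Total counts were 27514767 to 32522018 in the CTRB1 libraries and 52571457 to 159616285 in the GFP libraries, so every CTRB1 library was shallower than every GFP library. The CTRB1 gene itself had 19345 to 22749 counts in the CTRB1 libraries and 0 to 5 in the GFP libraries. Chi-square divided by its degrees of freedom was 5.55 to 7.32 for pairs within a group, where sampling alone would give about 1, and 24.6 to 37.5 for pairs across groups. The values across groups include the CTRB1 gene itself. The highest of them, 34.5 to 37.5, were all in pairs with GFP replicate 3, the deepest library, so depth bears on them too. Of the HEK293 marker genes, VIM, NEFM, INA, PAX2, KRT8 and KRT18 were expressed in both groups and PAX8 was at or under 0.2 CPM. Among them VIM and INA were lower in CTRB1 cells (log2 change -0.16 and -0.30; edgeR adjusted p = 0.000471 and 0.0105), and PAX2 and NEFM were higher (0.39 and 0.12; edgeR adjusted p = 0.0101 and 0.0257). Of 9 listed markers, 7 had a row with an HGNC symbol and 6 were tested. These 4 calls are 66.7% of those tested, against 37.4% of all tested genes. NEFM lost its call in 6 of 13 alternative settings and INA in 1, and 2 calls remained without GFP replicate 2.

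MHC class I molecules show fragments of a cell's own proteins to CD8 T cells. A heavy chain, encoded by genes such as HLA-B and HLA-C, pairs in the endoplasmic reticulum with the invariant light chain beta-2-microglobulin, encoded by B2M. Peptides made by the proteasome enter through a transporter built of TAP1 and TAP2, and tapasin, encoded by TAPBP, holds the empty heavy chain at the transporter until a peptide binds. HLA-E and HLA-F are nonclassical heavy chains, HLA-E being the ligand of the NKG2A receptor of natural killer cells. NLRC5 is a transcriptional coactivator of several genes of this set, which it reaches through a promoter module of X and Y boxes. Interferon raises most genes of the set through interferon-stimulated response elements.

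The promoters of the 4 genes that passed the test are shown because the known control of this pathway acts there. They run from 250 bases before to 50 bases after a gene start and come from RefSeq on GRCh38.p14, which is the reference sequence and not that of the alleles of HEK 293FT cells. Capitals mark a Y box (ATTGG), a CRE core (TGACG, as in the X2 box), an ISRE core (a pair of GAAA blocks with any 2 bases between them) or the kappa B consensus, each searched on both strands. Matches of one motif may overlap. The windows lie at chr15:44711267-44711566 for B2M (plus strand), chr6:31357130-31357429 for HLA-B (minus strand), chr6:31272043-31272342 for HLA-C (minus strand) and chr6:32853655-32853954 for TAP1 (minus strand, the upstream of its listed starts).
B2M: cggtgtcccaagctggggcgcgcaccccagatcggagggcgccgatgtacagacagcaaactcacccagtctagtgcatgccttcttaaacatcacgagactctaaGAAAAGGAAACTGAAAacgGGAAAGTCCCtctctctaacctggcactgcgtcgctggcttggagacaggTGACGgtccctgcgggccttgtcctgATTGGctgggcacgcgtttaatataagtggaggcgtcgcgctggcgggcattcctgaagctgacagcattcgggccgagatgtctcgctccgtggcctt
HLA-B: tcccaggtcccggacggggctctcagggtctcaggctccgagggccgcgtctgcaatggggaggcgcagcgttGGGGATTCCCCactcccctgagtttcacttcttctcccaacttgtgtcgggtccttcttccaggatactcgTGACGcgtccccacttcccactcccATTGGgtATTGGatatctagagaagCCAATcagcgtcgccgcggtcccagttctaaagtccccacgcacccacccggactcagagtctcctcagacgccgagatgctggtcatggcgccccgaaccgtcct
HLA-C: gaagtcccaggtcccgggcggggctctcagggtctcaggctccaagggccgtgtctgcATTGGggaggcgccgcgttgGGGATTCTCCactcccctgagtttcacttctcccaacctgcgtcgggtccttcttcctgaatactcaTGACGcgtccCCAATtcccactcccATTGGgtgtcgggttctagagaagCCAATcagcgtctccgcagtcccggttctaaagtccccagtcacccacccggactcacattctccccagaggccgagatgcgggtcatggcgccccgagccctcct
TAP1: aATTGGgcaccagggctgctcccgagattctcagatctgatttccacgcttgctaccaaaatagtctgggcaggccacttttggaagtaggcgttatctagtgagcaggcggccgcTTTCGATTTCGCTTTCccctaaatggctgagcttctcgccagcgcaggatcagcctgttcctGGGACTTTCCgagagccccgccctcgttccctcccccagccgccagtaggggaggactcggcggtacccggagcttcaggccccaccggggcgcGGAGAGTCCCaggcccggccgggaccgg

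The B2M window had a Y box 49 bases before the start, a CRE core 75 bases before it, ISRE cores at 144 and 138 bases that overlap each other, and a kappa B match at 125 bases. HLA-B and HLA-C were alike, with 88.5% of aligned positions identical, with a CRE core 106 bases before the start in HLA-B and 105 in HLA-C, and in both a Y box on the opposite strand 56 bases before it, among other Y boxes. TAP1 held overlapping ISRE cores at 134 and 128 bases, a kappa B match at 72 bases and a Y box at 249 bases. RefSeq windows were found for 7 of the 9 genes, all but HLA-E and NLRC5. Of these 7, an ISRE core occurred in 5, the kappa B consensus in 5, a Y box in 5 and a CRE core in 4. HLA-B and HLA-C had no match to the exact ISRE core, and sequences that depart from it were not searched. Among all 35116 promoter windows of 300 bases, 3.57% held an ISRE core, 5.91% the kappa B consensus, 34.6% a Y box and 24.6% a CRE core. These matches are letters in a window and say nothing of binding in these cells.

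HEK 293FT cells of both groups expressed the whole set, from the heavy chain HLA-C at the top to NLRC5 at the bottom. Over all 6 libraries HLA-C averaged 169 FPKM, above 97.5% of the tested genes, and B2M averaged 113 FPKM. HLA-B averaged 73.5 FPKM and HLA-E 30.1 FPKM, while HLA-F averaged 15.6 FPKM, so HLA-C stood 10.8-fold above HLA-F. The loading machinery was lower than every heavy chain, with TAPBP at 11.1, TAP2 at 10.5 and TAP1 at 8.17 FPKM. NLRC5, at 1.77 FPKM, was higher than only 7.05% of the tested genes. Each neighbouring pair in this order was separated without overlap over the 6 libraries, except TAPBP (10.1 to 11.9 FPKM) and TAP2 (9.71 to 11.01 FPKM), which overlapped. The 10 genes drew 0.0865 to 0.0870% of all counts in CTRB1 libraries and 0.0923 to 0.0951% in GFP libraries.

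**Figure D1:**
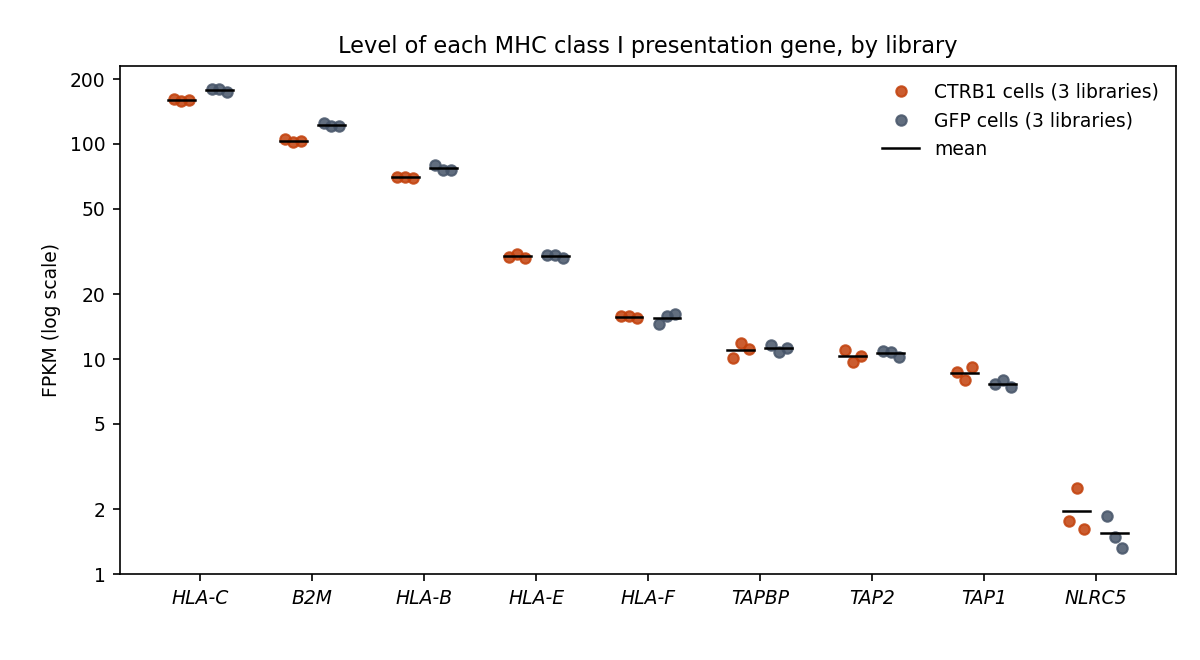
FPKM on a log axis for the 9 named genes, ordered by mean level, with 1 point per library (3 CTRB1 libraries at left and 3 GFP libraries at right of each gene) and a line at the group mean. HLA-C, B2M and HLA-B lie highest with the CTRB1 libraries below the GFP libraries, and NLRC5 lies lowest.

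The light chain gene and the heavy chain genes HLA-B and HLA-C fell in CTRB1 cells, by 8.47 to 14.6%. B2M (ENSG00000166710; chromosome 15, 45003675 to 45011075 as the table gives it, on a build that the sources used here do not state) had 196, 194 and 193 CPM in the CTRB1 libraries and 234, 224 and 226 CPM in the GFP libraries. All 3 CTRB1 libraries lay below all 3 GFP libraries, and the CTRB1 libraries spanned only 193 to 196 CPM. In FPKM, B2M was at 103 ± 1.76 in CTRB1 cells and 123 ± 1.95 in GFP cells (SD, n = 3 each). The difference was 14.6%, a log2 change of -0.23 ± 0.0254 (SE), and its Benjamini-Hochberg adjusted p by the quasi-likelihood test of edgeR was 7.51e-05.

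HLA-C (ENSG00000204525; chromosome 6, positions 31236526 to 31239907) had 288, 284 and 287 CPM in the CTRB1 libraries and 319, 316 and 312 CPM in the GFP libraries. The groups did not overlap, and the CTRB1 mean was 9.2% lower (log2 change -0.14 ± 0.0221, SE; edgeR adjusted p = 0.000716). HLA-B (ENSG00000234745; chromosome 6, positions 31321649 to 31324965) had 124, 124 and 123 CPM in the CTRB1 libraries and 140, 131 and 134 CPM in the GFP libraries. Here too the groups were apart, with a fall of 8.47% (log2 change -0.13 ± 0.0277, SE; edgeR adjusted p = 0.0045). Class I heavy chain genes are related in sequence, and reads can be divided wrongly between them. Of the 50-base windows of their longest GENCODE v29 coding transcripts, 2.54% in HLA-B, 6.71% in HLA-C, 4.66% in HLA-E and 1.51% in HLA-F occurred unchanged in another HLA gene, and none of the 150-base windows did. How reads of the HEK 293FT alleles aligned to the reference alleles was not tested.

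The nonclassical heavy chains did not pass the test. HLA-E (ENSG00000204592; chromosome 6, positions 30457244 to 30461982) had 87.6, 91.7 and 86.6 CPM in the CTRB1 libraries and 89.3, 88.1 and 86.9 CPM in the GFP libraries, which overlap. Its log2 change was 0.01 with a 95% interval of -0.06 to 0.08 (edgeR adjusted p = 0.815), so a change as large as that of B2M lies outside the interval. HLA-F (ENSG00000204642; chromosome 6, positions 29690552 to 29706305) had 22.9, 22.8 and 23.3 CPM in the CTRB1 libraries and 22.6, 21.8 and 22.1 CPM in the GFP libraries. Its CTRB1 libraries lay just above its GFP libraries in CPM, but not in FPKM, and the log2 change of 0.05 (95% interval -0.06 to 0.16) had an edgeR adjusted p of 0.432.

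The shares of the heavy chain genes were compared within a sum over these 4 genes only, and no difference passed a test. Of the summed FPKM of HLA-B, HLA-C, HLA-E and HLA-F, HLA-C made up 58.1 ± 0.475% in CTRB1 cells and 59.2 ± 0.331% in GFP cells (SD, n = 3 each). The share of HLA-E was 10.9 ± 0.268% in CTRB1 cells and 10.03 ± 0.0977% in GFP cells, and that of HLA-F was 5.68 ± 0.0609% and 5.16 ± 0.343% in the same groups (SD, n = 3 each). For these 3 genes the groups did not overlap, and an exact two-sided permutation test gave p = 0.1 each, the smallest value that 3 against 3 libraries allow. The share of HLA-B was 25.3 ± 0.154% in CTRB1 cells and 25.6 ± 0.541% in GFP cells, with overlapping groups (exact permutation p = 0.6). With 4 shares tested, none could pass a threshold of 0.05. The summed FPKM of the 4 genes was 275 to 278 in CTRB1 libraries and 296 to 305 in GFP libraries. B2M stood at 0.370 to 0.379 of that sum in the CTRB1 libraries and at 0.403 to 0.409 in the GFP libraries.

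**Figure D2:**
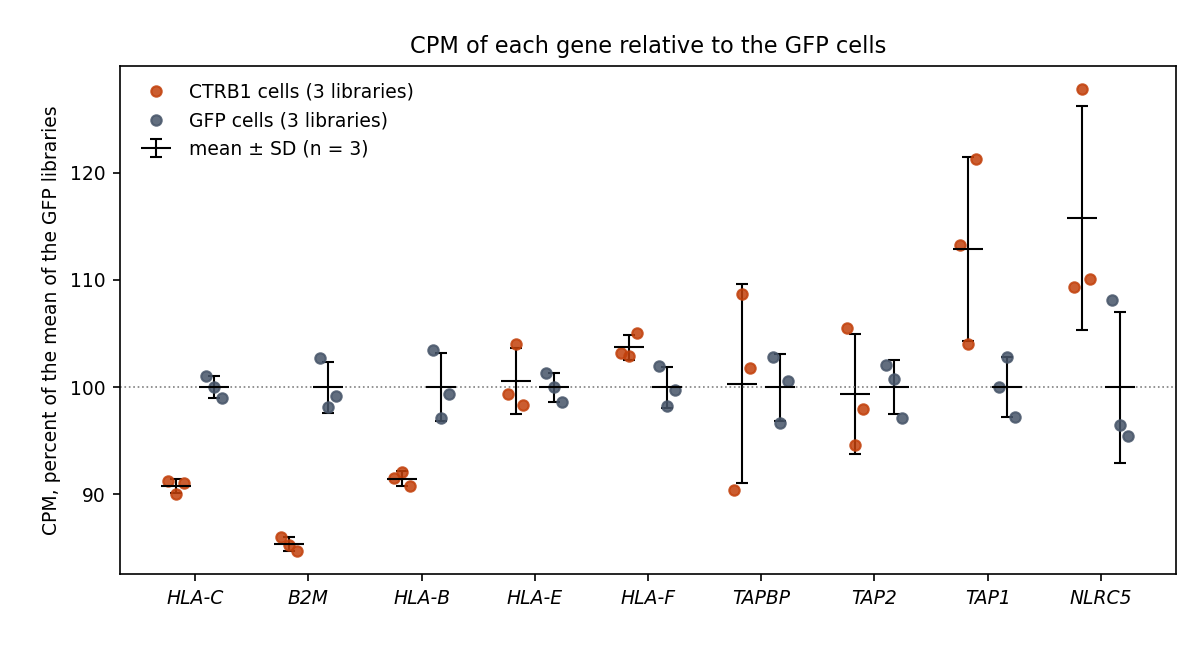
CPM of each gene as a percentage of the mean of the GFP libraries, with 1 point per library, CTRB1 at left and GFP at right, and bars for mean ± SD (n = 3). B2M, HLA-C and HLA-B lie below 100% in all 3 CTRB1 libraries, TAP1 and NLRC5 lie above it, and TAPBP and TAP2 scatter on both sides.

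Of the peptide transporter genes, TAP1 passed the test as higher and TAP2 did not pass, and the test of their ratio, given below, could not pass at this number of libraries. TAP1 (ENSG00000168394; chromosome 6, positions 32812986 to 32821755) had 29.2, 26.8 and 31.3 CPM in the CTRB1 libraries and 25.8, 26.5 and 25.1 CPM in the GFP libraries. Replicate 2 of the CTRB1 cells was only just above the highest GFP library. TAP1 passed with an edgeR adjusted p of 0.0409 at a log2 change of 0.17 ± 0.06 (SE), with a 95% interval of 0.04 to 0.31. This call was lost in 9 of 13 alternative settings, where the adjusted p reached 0.135, and among them in all but one of the settings that left out a library. The adjusted p was 0.0796 without CTRB1 replicate 1, 0.131 without CTRB1 replicate 3, and 0.104, 0.0692 and 0.135 without GFP replicates 1, 2 and 3. The exception was the fit without CTRB1 replicate 2 (adjusted p = 0.011). In the table's coordinates TAP1 lies wholly within PSMB9, the gene of an immunoproteasome subunit, which had 0.695 to 1.35 CPM in CTRB1 libraries and 0.84 to 0.954 CPM in GFP libraries.

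TAP2 (ENSG00000204267; chromosome 6, positions 32789610 to 32806557) had 69.7, 62.5 and 64.7 CPM in the CTRB1 libraries and 67.4, 66.5 and 64.2 CPM in the GFP libraries. The groups overlapped, and the log2 change was -0.01 with a 95% interval of -0.10 to 0.08 (edgeR adjusted p = 0.908). The readthrough gene that overlaps it (ENSG00000250264; positions 32781544 to 32806599) held 8 to 37 counts in the CTRB1 libraries and 19 to 201 in the deeper GFP libraries, or 0.253 to 1.14 CPM and 0.292 to 1.28 CPM. The ratio of TAP1 to TAP2 in FPKM was 0.794, 0.825 and 0.887 in CTRB1 cells and 0.706, 0.738 and 0.721 in GFP cells. The ratios of the groups did not overlap (exact two-sided permutation p = 0.1, the smallest possible).

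Neither tapasin nor the coactivator passed the test. The SE of the log2 change was 0.101 for NLRC5 and 0.0607 for TAPBP, against 0.06 for TAP1. TAPBP (ENSG00000231925; chromosome 6, positions 33267471 to 33282164) had 42.0, 50.5 and 47.3 CPM in the CTRB1 libraries and 47.8, 44.9 and 46.7 CPM in the GFP libraries. The CTRB1 libraries spanned the whole GFP range, and the log2 change was 0.00 with a 95% interval of -0.13 to 0.14 (edgeR adjusted p = 0.96). NLRC5 (ENSG00000140853; chromosome 16, positions 57023397 to 57117443) had 7.61, 8.89 and 7.66 CPM in the CTRB1 libraries and 7.52, 6.71 and 6.64 CPM in the GFP libraries. All CTRB1 libraries were above all GFP libraries in CPM, while in FPKM they overlapped, with 1.78, 2.53 and 1.62 FPKM for CTRB1 and 1.87, 1.49 and 1.32 FPKM for GFP. Its log2 change of 0.21 (95% interval -0.01 to 0.44) did not pass (edgeR adjusted p = 0.117). The interval reaches a rise of 1.35-fold, and the log2 change was 0.14 without CTRB1 replicate 2.

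These counts have to be read against a transcriptome in which many genes differed. Of all 11961 tested genes, 37.4% were called at an adjusted p under 0.05, 18.6% higher and 18.9% lower in CTRB1 cells. Of the 9 class I genes, 4 passed, 1 higher and 3 lower, which is 44.4% and close to the background. The groups did not overlap in CPM for 6 of the 9, 3 of them with the CTRB1 libraries higher, where 50% of all tested genes did not overlap and 25% had the CTRB1 libraries higher. Calls were also more frequent at high counts. With genes split by CPM into 5 bins of equal size, 57.3% were called in the top bin, which holds B2M, HLA-B and HLA-C, and 21% in the bottom bin, which holds NLRC5. The median log2 change of the 9 genes was 0.005, against 0.003 for all tested genes. In the authors' deposited table the same 4 genes have an adjusted p under 0.05, with log2 changes of -0.23 for B2M, -0.14 for HLA-C, -0.13 for HLA-B and 0.17 for TAP1.

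B2M, HLA-C and HLA-B kept their direction and their call in all 13 alternatives, which covered DESeq2, other scaling, other filters, FPKM with limma, counts thinned to the shallowest library and each library left out. Their highest adjusted p was 0.000671 for B2M, 0.00562 for HLA-C and 0.0194 for HLA-B. The signs for HLA-E, TAP2 and TAPBP, whose changes were near 0, turned round in 5, 5 and 6 of these 13.

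**Figure D3:**
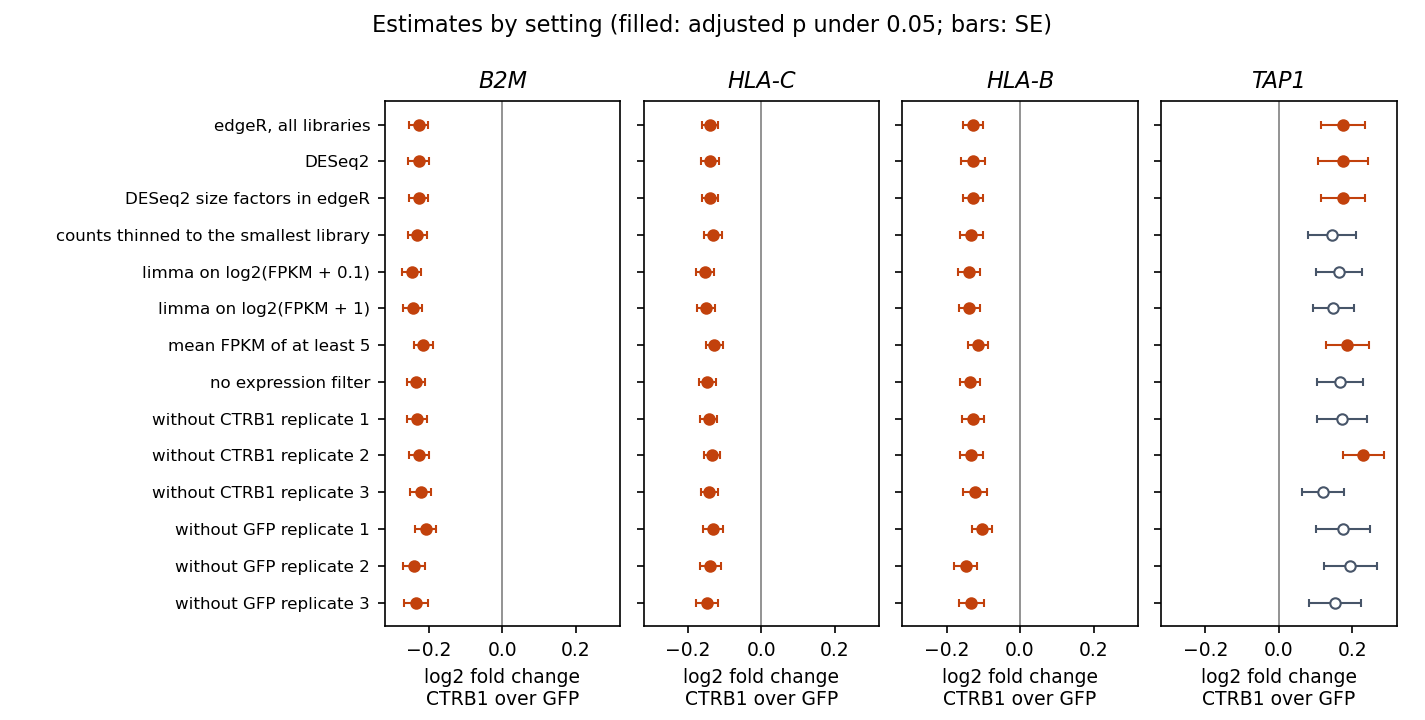
Log2 fold change of CTRB1 over GFP cells for the 4 called genes under the edgeR fit of all libraries and each alternative, with bars for the SE and filled points where the adjusted p was under 0.05. B2M, HLA-C and HLA-B stay filled and negative in every row, while TAP1 is filled in the first fit and in 4 of 13 others.

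Among 12 genes of heavy chain folding and peptide trimming in the endoplasmic reticulum, 11 were tested, of which 4 fell and 1 rose. That is 45.5%, close to the 37.4% called among all tested genes, with a median log2 change of -0.04. The calls numbered 3 without CTRB1 replicate 3 or GFP replicate 1. CALR, the gene of the chaperone calreticulin, was at 844 ± 18.8 CPM in CTRB1 cells and 981 ± 10.3 CPM in GFP cells (SD, n = 3 each; log2 change -0.22; edgeR adjusted p = 2.84e-05). BCAP31, which encodes an export and quality control factor of the endoplasmic reticulum, had a log2 change of -0.26 and PDIA3, the ERp57 oxidoreductase of the loading complex, one of -0.12 (edgeR adjusted p = 5.33e-05 and 0.00315). PRKCSH, the beta subunit of glucosidase II, was lower by 0.10 on the log2 scale, a call lost in 4 of 13 alternatives. The higher gene, ERAP1, which trims peptides, had 13.95 ± 0.942 CPM in CTRB1 cells and 11.9 ± 0.666 CPM in GFP cells (SD, n = 3 each). Its edgeR adjusted p of 0.0489 passed in only 3 of 12 alternatives.

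The proteasome supplies the peptides. The 7 genes of the immunoproteasome and the proteasome activators included the interferon-inducible subunits PSMB8, at 0.0632 to 0.338 CPM in CTRB1 libraries and 0.0382 to 0.277 CPM in GFP libraries, and PSMB9, both below the expression filter. Of the 5 tested, 2 were lower and none higher (40% called, near the 37.4% of all tested genes), namely PSME3 (1.29-fold lower, at 194 ± 8.6 CPM in CTRB1 cells and 250 ± 1.39 CPM in GFP cells, SD, n = 3 each; edgeR adjusted p = 1.17e-05) and PSME4 (log2 change -0.14; edgeR adjusted p = 0.00535). Both encode nuclear activators of the proteasome. PSME1 and PSME2, which encode the interferon-inducible activator PA28, each showed a log2 change of 0.04 that missed the threshold (edgeR adjusted p = 0.357 and 0.424). Of 4 genes of constitutive catalytic subunits and their assembly factor, 3 were lower (75% called, against 37.4% of all tested genes, in a list of only 4). Without CTRB1 replicate 2 all 4 were called. The calls dropped to 2 in the limma fits, with thinned counts and without CTRB1 replicate 3 or any 1 GFP library. POMP, the assembly factor, had a log2 change of -0.28 (edgeR adjusted p = 4.36e-05), PSMB5 one of -0.18 (0.00113) and PSMB6 one of -0.11 (0.033), and the call of PSMB6 was lost in 7 of 13 alternatives. None of 6 cytosolic peptidases passed in the edgeR fit of all libraries, the closest being BLMH at -0.11 and NPEPPS at 0.05 (edgeR adjusted p = 0.059 and 0.0856), and 3 of the 6 had an unadjusted p under 0.05. DESeq2 called 0 of the 6, and 1 was called in both limma fits, with thinned counts, with no filter, with a mean FPKM of at least 5 and without CTRB1 replicate 1, CTRB1 replicate 2 or GFP replicate 2. The lowest adjusted p of BLMH among these was 0.0109.

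Transcription factors that act on class I promoters moved in both directions. Of 18 tested, 6 were higher and 1 lower, which is 38.9% and near the background, with a median log2 change of 0.03. Without GFP replicate 2 the calls numbered 4. RFX5, the X box factor that works with NLRC5, was at 126 ± 5.61 CPM in CTRB1 cells and 115 ± 1.33 CPM in GFP cells (SD, n = 3 each; log2 change 0.14; edgeR adjusted p = 0.00557). NFYB, a subunit of the Y box factor NF-Y, rose by 0.18 (edgeR adjusted p = 0.00922). STAT2, an interferon signal transducer, rose by 0.20 (edgeR adjusted p = 0.00476). RFX5, NFYB and STAT2 lost their calls in 2 of 13 alternatives, the limma fits of FPKM. IRF1, an interferon-induced activator of class I genes, was at 8.1 ± 0.472 CPM in CTRB1 cells and 8.38 ± 0.058 CPM in GFP cells (SD, n = 3 each; edgeR adjusted p = 0.676).

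Interferon-induced genes outside the pathway moved in both directions. Of 19 tested, 7 were higher and 4 lower (57.9% called, against 37.4% of all tested genes), with a median log2 change of 0.12. The calls numbered 6 without GFP replicate 1 and 7 without GFP replicate 2 or GFP replicate 3. IFIT2 had the smallest adjusted p of the list and was at 162 ± 4.33 CPM in CTRB1 cells and 119 ± 0.446 CPM in GFP cells (SD, n = 3 each; log2 change 0.45; edgeR adjusted p = 6.05e-07). IFIT3, IFIT1 and IFITM3, whose products restrict viruses, rose by 0.16, 0.15 and 0.38 (edgeR adjusted p = 0.00123, 0.00174 and 0.0022). Those 4 calls held in all 13 alternatives. Among the lower genes, DTX3L, a ubiquitin ligase gene, was at 13.7 ± 0.959 CPM in CTRB1 cells and 17.7 ± 1.52 CPM in GFP cells (SD, n = 3 each; log2 change -0.37; edgeR adjusted p = 0.00679), a call kept in all 12 alternatives. OAS3, which encodes an antiviral oligoadenylate synthetase, had a log2 change of -0.44 (edgeR adjusted p = 0.024) and lost its call in 6 of 12. Of 9 receptors, kinases and regulators of interferon signalling tested, only TYK2 passed, with a log2 change of 0.10 (edgeR adjusted p = 0.0227), and it lost its call in 7 of 13 alternatives.

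**Figure D4:**
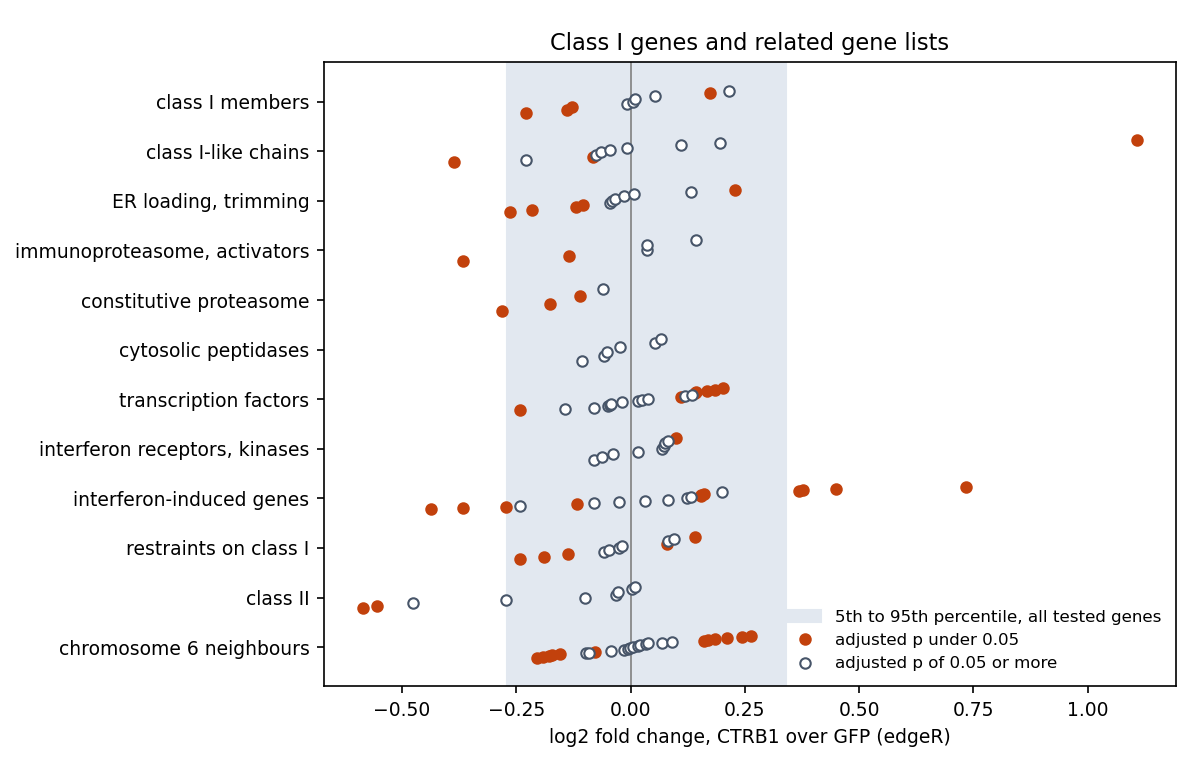
Log2 fold change of CTRB1 over GFP cells for each tested gene of the class I set and 11 related gene lists, filled where the edgeR adjusted p was under 0.05, with the 5th to 95th percentile of all tested genes shaded (-0.27 to 0.34). All 9 class I genes lie inside the shaded band, and ULBP1, among the class I-like chains, lies far to its right at 1.11.

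Of the 12 groups of genes plotted, the other class I and class I-like chains held the largest change. The class I-like proteins share the fold of the heavy chain, and several are stress ligands of the NKG2D receptor of natural killer and T cells. Of 10 tested, 1 was higher and 2 lower (30% called, against 37.4% of all tested genes), and 5 were called without CTRB1 replicate 1. ULBP1, an NKG2D ligand gene, had 11.9, 11.05 and 11.2 CPM in the CTRB1 libraries and 5.15, 5.28 and 5.38 CPM in the GFP libraries. The CTRB1 libraries lay far above the GFP libraries, and the rise was 2.16-fold (log2 change 1.11 ± 0.0856, SE; edgeR adjusted p = 5.94e-06), with the call kept in all 12 alternatives that tested it. MICA, another NKG2D ligand gene, moved the other way, with 10.5, 12.6 and 9.3 CPM in the CTRB1 libraries and 14.3, 14.1 and 14.1 CPM in the GFP libraries. Its log2 change was -0.39 ± 0.103 (SE; edgeR adjusted p = 0.0134), and the call held in all 13 alternatives. The log2 change was -0.23 for ULBP2 and -0.07 for MICB, neither past the threshold (edgeR adjusted p = 0.0872 and 0.538), and HLA-G had no count in any library.

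The chromosome 6 neighbours of these genes that have no presentation role gave no common direction. Of 25 tested, 6 were higher and 6 lower (48% called, against 37.4% of all tested genes), with a median log2 change of 0.01, among them BRD2 at -0.19, WDR46 at -0.21, RPS18 at 0.18 and VPS52 at 0.26. By profile over the 6 libraries, the genes most like B2M in log2 CPM were SRPRA, PKM and RAB5B, with Pearson's r of 0.999, 0.998 and 0.998. Those most like the summed heavy chains included DPH3 and SSBP1, with r of 0.999 and 0.996. As 820 genes exceeded r = 0.95 for B2M and 690 for the heavy chains, and all share the same libraries and group difference, the ranking separates few genes.

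Markers of leukocytes and endothelium were low in both groups, while the fibroblast marker COL1A1 was at 32.3 to 40.3 CPM in CTRB1 libraries and 30.8 to 32.6 CPM in GFP libraries. Leukocytes carry much class I, so their markers bear on these levels. Of 14 leukocyte markers, MS4A1, CD3D and CD3E had no count in any library, and 11 stayed under 1 CPM in all 6. Their summed level was 8.68 to 11.7 CPM in CTRB1 libraries and 9.83 to 12.2 CPM in GFP libraries, with CD8A at 2.02 to 3.2 CPM in CTRB1 libraries and 2.48 to 2.85 CPM in GFP libraries, and PTPRC, the pan-leukocyte gene, reached 0.0632 CPM at most. A count of 0 allows up to 0.109 CPM in the shallowest library, for counting error only. The 4 endothelial markers summed to 0.758 to 0.923 CPM in CTRB1 libraries and 0.916 to 1.26 CPM in GFP libraries. The 6 fibroblast markers summed to 40.0 to 48.0 CPM in CTRB1 libraries and 38.2 to 39.5 CPM in GFP libraries, mostly from COL1A1, and DCN, LUM and COL1A2 stayed under 1 CPM. COL1A1, a collagen gene, was itself higher by 0.23 on the log2 scale (edgeR adjusted p = 0.0331), a call lost in 7 of 13 alternatives. The part of such cells in the class I results was not tested.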

How the data were processed

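RNA of 6 HEK 293FT libraries, 3 CTRB1 and 3 GFP, was analysed from 1 deposited table. Per the file headers it holds read counts per gene, which the authors deposited without normalization, and its FPKM and TPM values are the authors' own, per the file headers. TPM and the authors' means of counts, a signal averaged over each group, were not used. The deposited log2 fold change is CTRB1 over GFP, and the deposited p-value and adjusted p-value come from an unstated tool. HTSeq 0.6.1, HISAT2 2.2.1 and cutadapt 1.9.1 stand in the submitters' processing notes without roles, beside a mouse build, although all identifiers are human. Whether counting used strand is not stated, so overlapping genes such as TAP1 and PSMB9 may not be separated.

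Counts were tested with edgeR 4.0.16 in R 4.3.3: genes with FPKM of at least 1 in at least 3 libraries, TMM factors, 1 quasi-likelihood model of both groups without covariates, and Benjamini-Hochberg adjustment over all 11961 genes at 0.05. The SE is the log2 change divided by the square root of F, and 95% intervals use its t quantile. CPM uses TMM-adjusted totals. The edgeR and limma tests were also run on simulated counts with known changes. Their means and dispersions came from the edgeR fit of these data, and the outcome is not reported here. Alternatives were each library left out, thinned counts, no filter, a filter of mean FPKM at 5 or more, DESeq2 1.42.0, edgeR with the size factors of DESeq2, limma 3.58.1 on log2(FPKM + 1) and log2(FPKM + 0.1), and the replicate number as a block, which is left out where alternatives are counted (13 without it). NLRC5 and other genes under a mean FPKM of 5 have 1 alternative fewer.

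The genes, their 15 companion lists and the tests were chosen with earlier results of these data known. Named genes are the 9 members, up to 4 called genes of a list, ranked by adjusted p (or 2 by p where no gene was called), and the 3 most alike in profile. IRF1, PSMB8, PSMB9, PSME1, PSME2, MICB, HLA-G, DTX3L, OAS3, EZH2, HLA-DQB1, ERAP1, ULBP2 and CD74, and single markers, were named after their values were seen. Not every gene the rule selects is named. List counts cover whole lists, and some genes counted in them or selected by the rule are not reported here. Coordinates are those of the table and were not combined with the GRCh38.p14 promoter windows from RefSeq. GENCODE v29 was used for transcript windows.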

Additional observations from a re-analysis of the deposited data

How the results depend on the processing

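B2M, HLA-C and HLA-B kept direction and call in every fit, with log2 changes of -0.25 to -0.21, -0.15 to -0.13 and -0.15 to -0.10. TAP1 kept its direction and lost its call with thinned counts (0.15), limma on log2(FPKM + 0.1) (0.16), limma on log2(FPKM + 1) (0.15), no expression filter (0.17) and the replicate block (0.17). Its log2 change was 0.12 to 0.23 with a library left out. The number of class I genes called higher was therefore 0 in these 5 settings and 0 to 1 with a library left out, and the number called lower was 3 in all of them. HLA-E changed sign to -0.0181 with thinned counts, to -0.0038 with limma on log2(FPKM + 0.1) and to -0.0037 with log2(FPKM + 1), with a range of -0.0155 to 0.0256 when a library was left out. TAP2 changed sign to 0.0068 with thinned counts and to 0.005 with a mean FPKM of at least 5, with a range of -0.0535 to 0.0275. TAPBP changed sign to -0.0266 and -0.0245 with the limma fits and to -0.0028 without a filter, with a range of -0.0586 to 0.0754. The cause of these changes was not tested. Over all genes, 2221 were called higher and 2258 lower, and each limma fit called 1250 higher. Calls without 1 library were 1605 to 2134 higher and 1728 to 2256 lower. The share of calls that were higher was 39.2% in both limma fits, against 49.6%. These fits change both the unit and the test, and the cause was not tested. The shares of HLA-B, HLA-C, HLA-E and HLA-F kept their direction in counts and without each library, but the difference for HLA-B was -0.0147 percentage points without GFP replicate 1 and -0.555 without GFP replicate 2, against -0.276.

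The replicate numbers do not pair the libraries: same-numbered CTRB1 and GFP libraries deviated from their group means with correlations of -0.084, -0.0144 and -0.09. With the replicate number as a block, 36.1% of genes were called, and TAP1 had an edgeR adjusted p of 0.0628. Counts of NLRC5 were 211 to 289 in CTRB1 libraries, the fewest of the 9 genes. Counts of alternatives elsewhere leave out the block.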

Other observations

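Class II genes, which present peptides to CD4 T cells and are controlled by CIITA, ranged widely in level, with CD74 near 0 and HLA-DQB1 at 17.9 to 19.4 CPM in CTRB1 libraries and 18.2 to 18.7 CPM in GFP libraries. Of 13 genes in the list 9 were tested, and 2 were lower and none higher (22.2% called, against 37.4% of all tested genes), with a median log2 change of -0.10. The count was 1 without GFP replicate 2 or GFP replicate 3. HLA-DRB1 had 6.32, 5.66 and 5.34 CPM in the CTRB1 libraries and 8.93, 8.39 and 8.15 CPM in the GFP libraries, with a log2 change of -0.55 ± 0.0975 (SE) and an edgeR adjusted p of 0.00133, which held in all 12 alternatives. HLA-DMA, a peptide-loading factor of class II, had 1.77, 2.74 and 2.54 CPM in the CTRB1 libraries and 3.26, 3.82 and 3.48 CPM in the GFP libraries (log2 change -0.59; edgeR adjusted p = 0.0175), a call lost without GFP replicate 2 or GFP replicate 3, at an adjusted p of at most 0.0661. CD74, the invariant chain gene, stayed at or under 0.379 CPM in every library. HLA-DRB1 has near-identical relatives, so the division of its reads is uncertain.

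Of 11 tested genes that restrain class I, 3 were lower and 2 higher (45.5% called, close to the 37.4% of all tested genes). Each limma fit called 1 of them, and the calls numbered 2 without GFP replicate 1 or GFP replicate 2 and 3 without CTRB1 replicate 2. TMEM127, which takes part in the removal of class I from the surface, was at 31.7 ± 1.73 CPM in CTRB1 cells and 37.5 ± 0.747 CPM in GFP cells (SD, n = 3 each; log2 change -0.24; edgeR adjusted p = 0.00338), a call kept in all 12 alternatives. IRGQ, an autophagy receptor gene, and EED, of the silencing complex PRC2, were lower, with log2 changes of -0.19 for IRGQ (edgeR adjusted p = 0.00587) and -0.14 for EED (0.0185), and SYVN1, an ubiquitin ligase gene of the endoplasmic reticulum, rose by 0.14 (edgeR adjusted p = 0.0219). IRGQ lost its call in 2 of 12 alternatives, EED in 4 of 13 and SYVN1 in 6 of 13. EZH2, the other higher gene and the catalytic subunit of PRC2, had a log2 change of 0.08 (edgeR adjusted p = 0.0435) and lost its call in 10 of 13 alternatives.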
